A study of Mus musculus with 4 samples.

Results

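The genes described here are 8 genes listed under the exit of T cells from the thymus or their retention in it: S1pr1, S1pr4, Klf2, Klf3, Foxo1, Cd69, Gpr183 and Emp3. They were chosen by name, from a list of genes of thymic exit and retention, and all 8 were present among the 53715 gene IDs of the deposited count table. RNA was sequenced from invariant natural killer T (iNKT) cells of the mouse thymus, sorted as live cells binding a CD1d tetramer and carrying TCRβ, and the Smart-seq2 libraries, which cover whole transcripts, do not mark strand. Wild-type (WT) mice gave 2 libraries, and mice of genotype Mettl3fl/flCD4-cre, in which Cre recombinase under Cd4 control acts on a floxed Mettl3 gene, gave 2 libraries and are called Mettl3 knockout here. All mice were C57BL/6 and 6 to 8 weeks old. Cd4-driven Cre acts in all T cells that have passed the CD4+CD8+ stage and not in iNKT cells alone, and METTL3 is the enzyme subunit that writes the m6A mark on mRNA. Whether the libraries came from separate animals is not stated in the labels, so the p-values reflect how far libraries of 1 genotype lie apart, which can be technical scatter.

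A mature thymocyte leaves through vessels at the border of cortex and medulla by following sphingosine-1-phosphate (S1P), which is abundant in blood and scarce in tissue. FOXO1 switches on the transcription factor KLF2, KLF2 drives the S1P receptor gene S1pr1, and the surface protein CD69 binds S1PR1 and removes it from the membrane. Many iNKT cells stay in the thymus as long-lived residents, while others leave as immature cells.

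m6A is placed on adenosines in short motifs, of which GGACT (in DNA letters) is a well-known form, so the members' main transcripts were searched for it. S1pr1, Klf2, Klf3, Cd69 and Emp3 held 1 GGACT each, all in coding sequence, S1pr4 held 3, Gpr183 5 and Foxo1 13. The windows below show the single site of the receptor gene, its antagonist and both KLF genes, in transcript orientation on GRCm38, with the motif in capitals and 8 bases on either side.
S1pr1, chr3:115712246-115712266, minus strand: cttggtcaGGACTcgaagccg
Cd69, chr6:129268297-129268317, minus strand: accgctgtGGACTgtgaggca
Klf2, chr8:72319477-72319497, plus strand: aacgtgttGGACTtcatcctc
Klf3, chr5:64822946-64822966, plus strand: accacagaGGACTgactatta
Per kilobase of transcript this was 0.328 for S1pr1, 0.593 for Cd69, 0.541 for Klf2 and 0.192 for Klf3, against a median of 1.05 over 11700 tested genes with a coding transcript. Thus 11% of those genes had a lower density than S1pr1 and 84.3% a lower one than Gpr183, at 1.84. m6A itself was not measured in these libraries, and a motif match is not a methylated site.

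Of the 8 genes, S1pr1 rose in the Mettl3 knockout and none of the other 7 passed the test (edgeR quasi-likelihood F-test, p-values adjusted by Benjamini-Hochberg over all 14185 tested genes, threshold 0.05). Cd69 was lower in both knockout libraries and missed the threshold narrowly. Klf2 and Foxo1 were higher in both knockout libraries by smaller amounts that did not pass, and S1pr4, the most abundant of the 8, differed little between libraries. Over all tested genes 2.59% were called, 1.09% as higher and 1.51% as lower, and all 8 genes were abundant enough to be tested. At an unadjusted p under 0.05 stood 2 of the 8, S1pr1 and Cd69, where 20.2% of all tested genes did. limma voom also called S1pr1 alone of the 8, with 1.99% of all tested genes called, and DESeq2 called S1pr1 and Cd69, with 9.64% of its genes called. The median log2 fold change of the 8 was 0.07, against 0.02 over all tested genes. In 6 of the 8 the libraries of the genotypes did not overlap, where 50.3% of all tested genes had no overlap. Levels are CPM, counts scaled to a common library size with TMM correction for composition, and fold changes compare the knockout with WT.

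**Figure D1:**
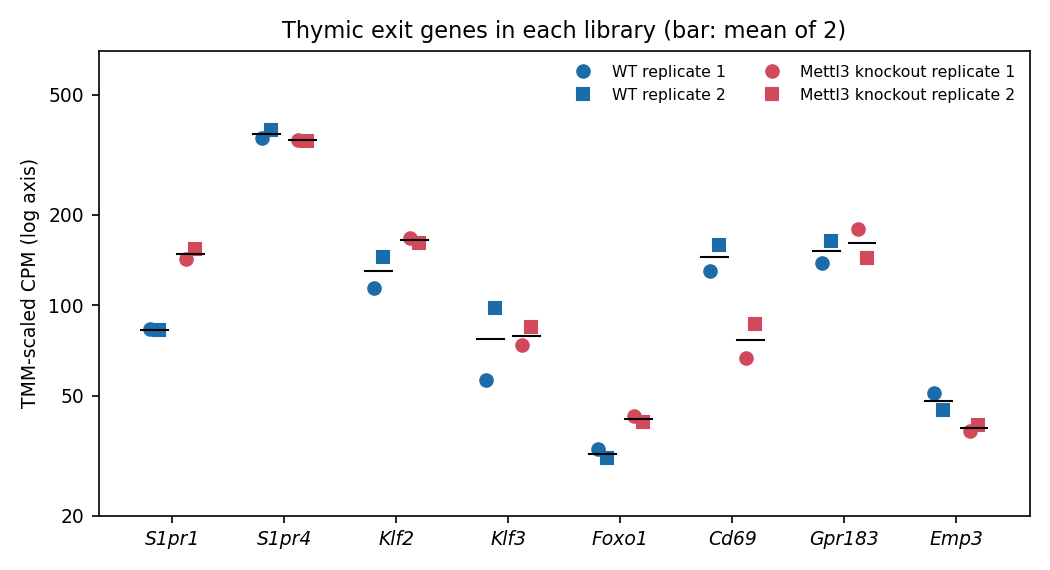
TMM-scaled CPM (log axis) of the 8 thymic exit genes in each library, with circles for replicate 1, squares for replicate 2 and a bar for the mean of each genotype. S1pr1 sits at 82.6 to 83.2 CPM in WT and 142.2 to 153.8 CPM in the knockout, Cd69 lies lower in the knockout, and Klf3 and Gpr183 overlap between the genotypes.

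The receptors for S1P come first. S1pr1 (ENSMUSG00000045092.8; GRCm38 chromosome 3, 115710433 to 115715072, minus strand, protein coding) encodes the G protein-coupled receptor that guides thymocytes into the blood. In CPM, WT replicates 1 and 2 had 83.2 and 82.6, and knockout replicates 1 and 2 had 142.2 and 153.8. Both knockout libraries lay above both WT libraries, and the WT libraries were nearly equal. The means were 82.9 ± 0.419 and 148.0 ± 8.19 CPM (SD, n = 2), a 1.78-fold rise (log2 fold change 0.84, SE 0.14, 95% interval 0.52 to 1.15; edgeR adjusted p = 0.0286). The call needed all 4 libraries: the log2 fold change stayed between 0.77 and 0.89 when any library was left out, but the edgeR adjusted p became 0.0962 and 0.119 on omitting WT replicate 1 or 2, and 0.146 and 0.199 on omitting knockout replicate 1 or 2. In bulk RNA, fewer cells of a type and less RNA per cell cannot be told apart, nor can more cells and more RNA, here and below.

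S1pr4 (ENSMUSG00000044199.6; chromosome 10, 81497747 to 81500132, minus strand), an S1P receptor of lymphoid and myeloid cells, was at 359.3 and 382.7 CPM in WT and at 353.9 and 351.9 CPM in the knockout. All 4 libraries fell within a narrow range, with the knockout values just below the WT values. Its log2 fold change was -0.07, with a 95% interval of -0.30 to 0.16 (edgeR adjusted p = 0.751), an interval that holds a small fall and a small rise. Counts of S1pr1 per count of S1pr4, a ratio that no library scaling can alter, were 0.232 and 0.216 in WT and 0.402 and 0.437 in the knockout. Among the other S1P receptor genes, S1pr2, whose product inhibits migration in several cell types, was at 22.6 and 25.6 CPM in WT and 9.72 and 7.94 CPM in the knockout. Its difference of -1.44 on the log2 scale (SE 0.30) did not pass, at an edgeR adjusted p = 0.0556, and it passed in 2 of 12 alternative settings. S1pr3 had no count in any library, and S1pr5 was counted in WT replicate 1 only, at 1.85 CPM.

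The rest of the S1P pathway list, which holds the kinases, lyase, phosphatases and exporters of S1P, had no other call by edgeR: of 9 tested genes 1 rose, S1pr1 itself, and 0 fell. At an unadjusted p under 0.05 stood 5 of the 9, where 20.2% of all tested genes did, and edgeR called 1.09% of all higher and 1.51% lower. DESeq2 called 4 genes of the list and edgeR called 3 among genes of at least 5 CPM in 2 libraries, S1pr2 among them in both, with adjusted p = 0.00214 and 0.0283. Over all genes DESeq2 called 9.64%, and edgeR called 727 of 9833 at that cut. The median of the list was -0.07. Sphk2, an S1P-producing kinase gene, was at 100.2 and 146.0 CPM in WT and 142.5 and 161.8 CPM in the knockout, with overlapping genotypes. Sgpl1, which encodes the lyase that destroys S1P, was at 84.4 and 104.8 CPM in WT and 120.9 and 113.8 CPM in knockout libraries (adjusted p = 0.321 by edgeR).

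Cd69 (ENSMUSG00000030156.5; chromosome 6, 129267325 to 129275436, minus strand) encodes the retention protein that opposes S1PR1. Its values were 129.5 and 158.5 CPM in WT and 66.8 and 86.7 CPM in the knockout. The genotypes did not overlap. WT averaged 144.0 ± 20.5 CPM and the knockout 76.7 ± 14.1 CPM (SD, n = 2). The log2 fold change was -0.91 (SE 0.18, 95% interval -1.33 to -0.48), similar in size to that of S1pr1 but from libraries that scattered more, and the edgeR adjusted p was 0.0512, just outside the threshold. Cd69 passed with DESeq2 (adjusted p = 0.000375) with edgeR on genes of at least 5 CPM in 2 libraries (adjusted p = 0.0213), and with the gene-length trend removed (adjusted p = 0.0447). Across all 12 alternative settings its log2 fold change stayed negative, from -1.11 to -0.73, with adjusted p from 0.000375 to 0.255, the highest without knockout replicate 1.

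The balance of S1pr1 and Cd69 can be read within each library without any scaling, although a ratio does not show which of the pair moved. For each Cd69 count there were 0.643 and 0.521 S1pr1 counts in the WT libraries, and 2.13 and 1.77 in the knockout libraries. Cd69 was thus the more counted transcript in both WT libraries, and S1pr1 the more counted in both knockout libraries. Klf2 counts per Cd69 count were 0.881 and 0.913 in WT and 2.51 and 1.86 in knockout libraries. These ratios are given as a description, since the pair was named with its direction known.

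**Figure D2:**
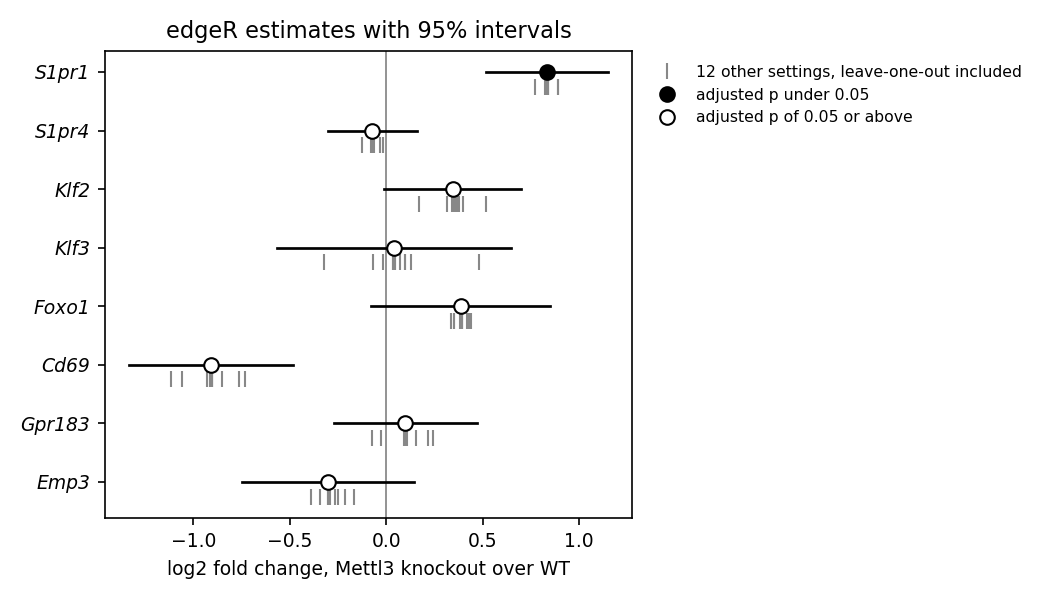
Log2 fold change (knockout over WT) of each gene by edgeR with its 95% interval, filled where the adjusted p was under 0.05, and grey ticks for the 12 alternative settings. The interval of Cd69, -1.33 to -0.48, lies below 0 although its adjusted p was 0.0512, the ticks of S1pr1 all lie between 0.77 and 0.89, and those of Klf3 and Gpr183 fall on both sides of 0.

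The transcription factors Klf2, Foxo1 and Klf3 did not pass, and their difference from S1pr1 was not tested. Klf2 (ENSMUSG00000055148.7; chromosome 8, 72319033 to 72321656, plus strand), the zinc finger activator of S1pr1, was at 114.2 and 144.8 CPM in WT and at 167.3 and 160.9 CPM in the knockout. The knockout libraries lay above both WT libraries, but the WT libraries differed from each other by more than the distance from the higher of them to the knockout. On the log2 scale the knockout was 0.34 above WT (SE 0.15; 95% interval -0.01 to 0.70), which did not pass, at an edgeR adjusted p = 0.258. Omitting WT replicate 1 gave 0.17, omitting WT replicate 2 gave 0.52, and it did not pass in any of the 12 alternative settings.

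Foxo1 (ENSMUSG00000044167.6; chromosome 3, 52268336 to 52353221, plus strand), the forkhead factor that activates Klf2, was at 33.2 and 31.0 CPM in WT and at 43.0 and 40.9 CPM in the knockout. The genotypes did not overlap, at means of 32.1 ± 1.57 and 42.0 ± 1.48 CPM (SD, n = 2). Its log2 fold change of 0.39 (SE 0.20, 95% interval -0.08 to 0.85) did not pass (edgeR adjusted p = 0.331), nor did it in any alternative setting, where it ranged from 0.34 to 0.44. Foxo1 is regulated largely by phosphorylation and nuclear export, which RNA levels do not show. Its exons share 674 bases with Gm20402, an antisense gene with 1 count in all 4 libraries together.

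Klf3 (ENSMUSG00000029178.14; chromosome 5, 64803388 to 64832901, plus strand) encodes a KLF repressor that binds the same kind of CACCC site as KLF2. It was at 56.6 and 98.2 CPM in WT and at 73.9 and 84.4 CPM in the knockout. The knockout libraries lay between the WT libraries, whose spread was the widest of the 8 genes relative to their mean. On the log2 scale the difference was 0.04 (SE 0.26; 95% interval -0.57 to 0.65), with an edgeR adjusted p = 0.957, and it turned to -0.32 without WT replicate 1 and -0.07 without knockout replicate 2, so no direction can be given. Klf2 counts per Klf3 count were 2.02 and 1.47 in WT and 2.26 and 1.91 in the knockout, which overlap. The Klf3 exons share 404 bases with Gm20033 on the opposite strand, at 63 and 42 counts in WT and 73 and 45 in the knockout.

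Of the 13 tested genes of the KLF family, 0 were called in either direction by edgeR, 3 had an unadjusted p under 0.05, DESeq2 called 2 and limma voom 0, and the median log2 fold change was 0.04. Over all genes these shares were 2.59% (edgeR), 20.2% (unadjusted), 9.64% (DESeq2) and 1.99% (limma voom). The genes with the smallest p were Klf12 and Klf6. Klf12, a repressor gene, was at 0 and 0.159 CPM in WT and at 3.96 and 3.49 CPM in knockout libraries, with an edgeR adjusted p = 0.0626. Klf6, an immediate early member, was at 296.7 and 352.2 CPM in WT and 183.4 and 228.2 CPM in the knockout. Its log2 fold change was -0.66 (SE 0.15; edgeR adjusted p = 0.0649), opposite in sign to that of Klf2.

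Klf2 transcription is driven by the kinase ERK5, encoded by Mapk7, through MEF2 factors. Mapk7 rose: it was at 16.1 and 21.7 CPM in WT and at 50.8 and 52.9 CPM in knockout libraries, which is 1.46 higher on the log2 scale (SE 0.23; edgeR adjusted p = 0.0269). This was the only edgeR call among the 7 tested regulators of KLF2, whose median was -0.03, where 2.59% of all tested genes were called. Mef2d and Mef2a, which encode MEF2 factors, had log2 fold changes of -0.03 and -0.14, and Map2k5, which encodes the kinase that activates ERK5, had -0.10. Like S1pr1, Mapk7 did not pass without any library in turn, with adjusted p of 0.104 and 0.0799 without WT replicates 1 and 2 and 0.137 and 0.152 without knockout replicates 1 and 2, and log2 fold changes of 1.25 to 1.68.

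The proximal Klf2 promoter is shown because ERK5 acts on this gene through MEF2, from the RefSeq table of GRCm38.p6, up to the base before the annotated gene start, with the match to the MEF2 consensus in capitals.
Klf2, chr8:72318812-72319032, plus strand: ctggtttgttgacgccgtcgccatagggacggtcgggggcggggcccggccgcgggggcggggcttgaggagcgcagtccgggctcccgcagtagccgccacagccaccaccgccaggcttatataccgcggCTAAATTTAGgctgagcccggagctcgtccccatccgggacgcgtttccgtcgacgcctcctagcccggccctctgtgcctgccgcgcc
Both strands were searched, and the match begins 89 bases before the gene start. Promoter windows of 300 bases, 250 before and 50 after the RefSeq start, were found for 6 of the 8 genes, with none for S1pr1 and Cd69. The MEF2 consensus was in the Klf2 window alone among the 7 windows of these genes (Emp3 had 2), and in 3.19% of 32807 windows of all genes. The KLF motif CACCC, read on both strands, was in the windows of Klf2, Klf3, S1pr4 and Emp3, and in 57.5% of all windows. The FOXO motif GTAAACA was in none of the 7 and in 3.65% of all windows. No binding was measured, and a match or its absence says nothing of the factor.

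FOXO1 is held out of the nucleus by PI3K and AKT, and the 21 tested genes of that pathway had a median log2 fold change of 0.06. By edgeR 0 of them rose and 1 fell, 4 had an unadjusted p under 0.05, and 13 were positive and 8 negative. Among all tested genes 1.09% rose, 1.51% fell and 20.2% had an unadjusted p under 0.05. Akt2 and Pik3cd, an AKT and a PI3K catalytic gene, had log2 fold changes of 0.19 and -0.11 (edgeR adjusted p = 0.350 and 0.547). Larger differences went both ways without passing. Rictor was at 0.51, Pik3ip1 at 0.59 and Sgk1 at -0.99 (edgeR adjusted p = 0.0631, 0.112 and 0.0908).

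Of 10 homing and other genes that FOXO1 or KLF2 are linked to, 2 rose and 0 fell by edgeR, with a median of 0.23. At an unadjusted p under 0.05 stood 5 of the 10, and the other 3, the receptor gene Il7r and the integrin genes Itgal and Itgb7, were negative, at -0.34, -0.31 and -0.30. DESeq2 called 4 genes of the list, and edgeR 3 among genes of at least 5 CPM in 2 libraries. Among all tested genes edgeR called 1.09% higher and 1.51% lower, and 20.2% had an unadjusted p under 0.05. DESeq2 called 9.64% of its genes, and edgeR called 727 of 9833 at the 5 CPM cut. Ccr7, the receptor that draws T cells to lymph nodes, was at 149.3 and 141.0 CPM in WT and 352.6 and 393.9 CPM in knockout libraries, 1.36 higher in log2 units (edgeR adjusted p = 0.00342), and Lef1, a factor of naive T cells, rose by 0.75 in log2 units (SE 0.09; edgeR adjusted p = 0.0112). Ccr7 passed without any one of the 4 libraries, while Lef1 passed only without WT replicate 1 (adjusted p = 0.0522 without WT replicate 2, 0.114 and 0.0976 without knockout replicates 1 and 2), and 1208 of its exon bases overlap the antisense gene Gm43352, at 61 to 124 counts. Il7r, a FOXO1 target that encodes the interleukin-7 receptor, was at 1268 and 1267 CPM in WT and 967.4 and 1034 CPM in knockout libraries (log2 fold change -0.34; edgeR adjusted p = 0.0692).

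Gpr183 (ENSMUSG00000051212.8; chromosome 14, 121952551 to 121965195, minus strand) encodes EBI2, a receptor that steers lymphocytes along oxysterol gradients. It was at 138.4 and 163.2 CPM in WT and at 179.2 and 143.5 CPM in the knockout. The genotypes overlapped, and the log2 fold change of 0.10 (SE 0.16, 95% interval -0.27 to 0.47; edgeR adjusted p = 0.790) became -0.03 without WT replicate 1 and -0.07 without knockout replicate 1. The gene lies within Ubac2 on the other strand, with no shared exon bases. Of the 4 listed enzymes that make or break its ligands, Ch25h and Hsd3b7 had no count in any library. Of the 2 tested, Cyp7b1 and Cyp27a1, 0 were called (edgeR adjusted p = 0.777 and 0.151), with no library above 3.66 CPM. At an unadjusted p under 0.05 stood 1 of the 2, where 20.2% of all tested genes did.

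Emp3 (ENSMUSG00000040212.12; chromosome 7, 45918023 to 45921404, minus strand) encodes a small membrane protein of the PMP22 family. It was at 51.1 and 44.9 CPM in WT and at 38.1 and 40.0 CPM in the knockout. The knockout libraries lay below both WT libraries, by a log2 fold change of -0.30 (SE 0.19, 95% interval -0.75 to 0.15) that did not pass (edgeR adjusted p = 0.438). Of its relatives Emp1 was at 34.0 to 40.7 CPM over the 4 libraries (edgeR adjusted p = 0.803), and Emp2, Pmp22 and Lim2 had no count.

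**Figure D3:**
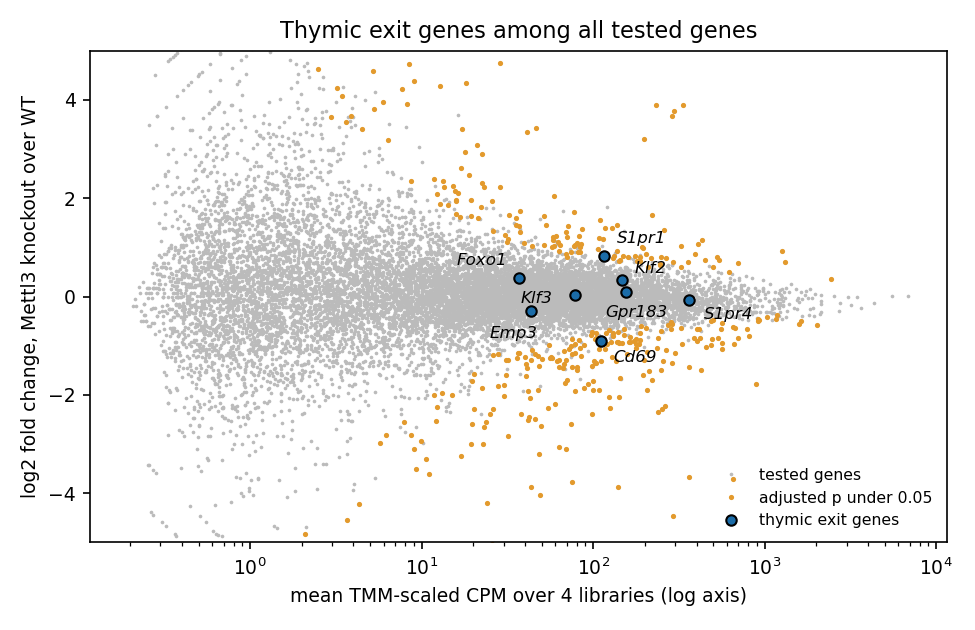
Log2 fold change (knockout over WT) against mean TMM-scaled CPM (log axis) for all tested genes, with called genes in orange and the 8 thymic exit genes in blue; 292 genes beyond a log2 fold change of 5 in size are not drawn. S1pr1 lies at 0.84 and Cd69 at -0.91, and the other 6 lie between -0.30 and 0.39.

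Levels of different genes can be compared only per length, here as CPM per kilobase of the main transcript. In WT the order was S1pr4 (155.5), Cd69 (85.4), Klf2 (70.1), Emp3 (61.3), Gpr183 (55.4), S1pr1 (27.2), Klf3 (14.8) and Foxo1 (3.70). In the knockout it was S1pr4 (147.9), Klf2 (88.9), Gpr183 (59.2), Emp3 (49.8), S1pr1 (48.6), Cd69 (45.5), Klf3 (15.2) and Foxo1 (4.84). In WT the libraries of Cd69 and Klf2 overlapped, as did those of Klf2 and Emp3 and of Emp3 and Gpr183. In the knockout Emp3, S1pr1 and Cd69 overlapped. Per kilobase of all annotated exons in place of the main transcript, Cd69 was at 22.1 in WT and 11.8 in the knockout, because its exons add up to 6509 bases against 1687 in the main transcript, so its rank depends on which transcripts are made. Klf3, with 11243 exon bases against 5221, was then at 6.88 and 7.04. The rank of Emp3, with 1071 exon bases against 784, changed as well. Per exon kilobase Emp3 was at 44.8 in WT, below Gpr183 at 52.2, and at 36.5 in the knockout, below S1pr1 at 48.6.

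The profile of S1pr1 over the 4 libraries was closest to those of Grwd1, Ccr9 and Fbxo5, by Euclidean distance between centred log2 CPM values (0.06, 0.07 and 0.10) among 8204 protein-coding genes of at least 10 CPM. Ccr9, a chemokine receptor gene of thymocytes, was at 192.6 and 197.8 CPM in WT and 318.1 and 353.7 CPM in the knockout. Of the 8204 genes, 61 lay within a distance of 0.2 of S1pr1. Such likeness rests on 4 libraries only, and how common it is for other genes was not examined.

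The counterpart of exit is residency, and there most of the listed genes were lower in the knockout. Of 14 tested residency genes, Cd69 not among them, 8 fell and 0 rose by edgeR, where 1.51% of all tested genes fell and 1.09% rose. The median log2 fold change was -1.37, and 13 of the 14 were negative. This list was chosen with earlier results of these data known. Rgs1, which dampens signalling of G protein-coupled receptors, was at 371.4 and 494.3 CPM in WT and 95.7 and 88.8 CPM in knockout libraries (log2 fold change -2.23, SE 0.16; edgeR adjusted p = 0.00214), and its relative Rgs2 fell by 1.36 in log2 units (adjusted p = 0.00431). Both passed without any one library.

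Adhesion genes were part of the same group. Itgae, which encodes the CD103 integrin chain, fell by 1.49 on the log2 scale from 338.5 and 394.0 CPM to 146.2 and 114.8 CPM (edgeR adjusted p = 0.00558), and did not pass without knockout replicate 2 (0.0508). Itga1, the CD49a integrin chain gene, fell by 3.88 in log2 units (edgeR adjusted p = 0.0330). Omitting knockout replicate 2 gave -6.56, which still passed, and it did not pass without knockout replicate 1 (-2.98; adjusted p = 0.114) or WT replicate 2 (-3.24; adjusted p = 0.129). Cdh1, which encodes E-cadherin, fell by 4.19 on the log2 scale (adjusted p = 0.0431). It passed on omitting WT replicate 1. It did not on omitting WT replicate 2 (-3.18; adjusted p = 0.0765), nor on omitting either knockout library (-3.91 and -4.55; adjusted p = 0.212 and 0.178 for replicates 1 and 2). Cxcr3, the chemokine receptor that retains iNKT cells in the medulla, fell by 0.84 (edgeR adjusted p = 0.0173) and passed only without WT replicate 1, with 0.0886 to 0.151 otherwise.

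The remaining calls were Bhlhe40, a transcription factor gene, which fell by 1.62 (edgeR adjusted p = 0.0387), and Xcl1, a chemokine gene, which fell by 2.81 (adjusted p = 0.0358). Neither passed when any library was left out, with adjusted p of 0.0572 to 0.195 for Bhlhe40 and 0.106 to 0.184 for Xcl1, whose log2 fold change was -3.70 without knockout replicate 1 and -2.28 without knockout replicate 2. Xcl1 shares 98 exon bases, 18.7% of its own, with Gm20743 on the opposite strand, which had 1632 and 1337 counts in WT and 298 and 97 in the knockout. The libraries do not mark strand, so reads within the shared bases cannot be told apart. Cxcr6, the receptor gene that marks many resident T cells, was the member of the list with a positive value, 0.25 (edgeR adjusted p = 0.587). The number of residency genes called was 3 without WT replicate 2 or either knockout library.

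The movement machinery that receptors engage, such as RAC2, DOCK2, coronin 1A and the MST1 kinase, had 0 of 15 tested genes called in either direction by edgeR, 7 at an unadjusted p under 0.05, 1 by limma voom and 4 by DESeq2, with a median of -0.21 and 13 of the 15 negative. Over all genes these shares were 2.59% (edgeR), 20.2% (unadjusted), 1.99% (limma voom) and 9.64% (DESeq2). The smallest p were those of Rac2, a GTPase gene, at 1347 and 1377 CPM in WT and 1142 and 1050 CPM in knockout libraries (edgeR adjusted p = 0.0917), and Grk2, the kinase gene that desensitises S1PR1, at 120.4 and 117.5 CPM in WT and 68.2 and 86.7 CPM in knockout libraries (adjusted p = 0.0977). Across all pathway lists, the 8 genes left out, 3 of 87 tested genes rose and 9 fell by edgeR. These calls were 13.8% of the 87, against 2.59% of all tested genes, in lists chosen with earlier results known.

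**Figure D4:**
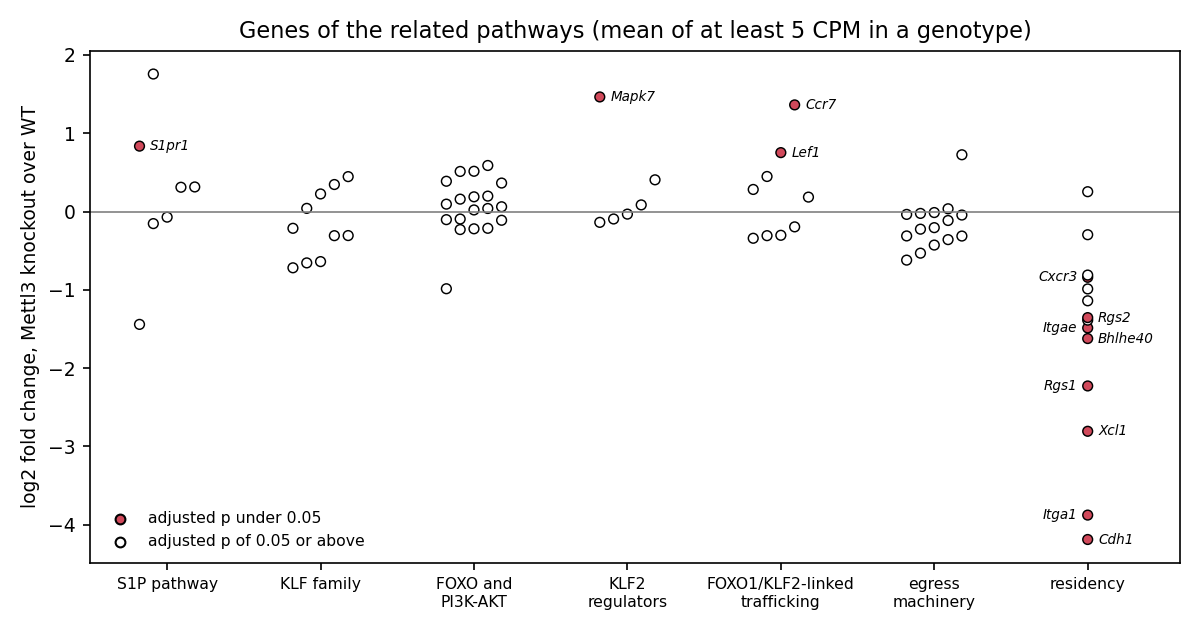
Log2 fold change (knockout over WT) of the genes reported here from 7 related lists, averaging 5 CPM or more in a genotype, filled where the edgeR adjusted p was under 0.05. The 8 called residency genes run from -0.84 to -4.19, while S1pr1, Mapk7, Ccr7 and Lef1 are the called genes above 0.

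The sums of several marker lists also differed between the genotypes. For the counts below, edgeR called 1.09% of all tested genes higher and 1.51% lower, and 20.2% had an unadjusted p under 0.05. CD4+CD8+ thymocyte markers summed to 288.1 to 397.9 CPM in WT and 548.9 to 595.6 CPM in the knockout, with 0 of 6 called by edgeR and 4 at an unadjusted p under 0.05. Single-positive T cell markers other than S1pr1 and Klf2, of which Cd8a and Cd8b1 are also on the CD4+CD8+ list, summed to 753.1 to 776.8 and 1394 to 1408 CPM, with 2 of 5 called higher, Ccr7 and Lef1. Myeloid and dendritic markers summed to 76.7 to 102.0 and 422.5 to 476.4 CPM, with 3 of 10 tested called higher (Lyz2, Csf1r and Cd209a) and 1 lower (Fcer1g). Most of the knockout sums was Lyz2, at 29.6 and 47.5 CPM in WT and 324.6 and 385.6 CPM in the knockout. Cst3 and C1qa had negative log2 fold changes, -0.65 and -0.14 (edgeR adjusted p = 0.469 and 0.901). Tyrobp stayed at or under 0.557 CPM and Itgam at or under 0.272 CPM. B cell markers summed to 7.54 to 15.8 and 24.4 to 31.8 CPM, with 0 of 4 tested called (1 at an unadjusted p under 0.05) and Pax5 at 0. H2-Ab1, an MHC class II gene of antigen-presenting cells, was at 29.3 and 55.1 CPM in WT and 591.3 and 656.3 CPM in knockout libraries. S1pr1 is also strongly expressed by endothelium, whose markers summed to 39.1 to 50.6 and 72.9 to 81.9 CPM, nearly all of it Pecam1, which T cells also express, with 0 of 3 tested called and 2 at an unadjusted p under 0.05. The other endothelial markers were at most 2.53 CPM in any library, Tek and Emcn were at 0 in all 4, and Cdh5 was at 0 in WT and 0.622 and 1.28 CPM in the knockout. Stromal markers summed to 6.10 to 16.1 CPM and erythroid markers to 0.955 to 8.91 CPM over all libraries, with 0 called in either (1 and 2 at an unadjusted p under 0.05). T cell markers summed to 6508 to 6783 and 5767 to 5988 CPM, with Trac the only call, lower by 0.58 (edgeR adjusted p = 0.0124). Trac alone was at 2292 and 2510 CPM in WT and 1612 and 1601 CPM in the knockout, a large part of these sums. Of the 9 T cell markers 4 had a positive log2 fold change and 5 a negative one. At an edgeR unadjusted p under 0.05 stood 6 of the 9. Zbtb16 and Cd247 were higher, at log2 fold changes of 0.65 and 0.27. Trac, Cd3g, Zap70 and Cd3d were lower, at -0.58, -0.55, -0.40 and -0.35. The part of other cell types in the values of S1pr1, Cd69 or Klf2 was not tested.

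Library totals were 24374587 to 28316016 counts. Mettl3, the targeted gene, was at 92.2 and 123.6 CPM in WT and at 78.1 and 91.4 CPM in knockout libraries (edgeR adjusted p = 0.357). Exons outside the floxed part can still give counts, and counts per exon were not examined, so this value does not check the labels. Why the gene was still counted in the knockout was not tested.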

How the data were processed

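The authors deposited 1 table of gene-level counts, whole numbers without normalization, with a column for each of the 4 libraries. The submitters' processing notes list HTSeq 0.6.1, STAR 2.6.0a, DESeq2 1.18.1, FastQC 0.11.5 and the mm10 build without roles. The annotation release, strand setting and filters were not given in the sources used here. Symbols, coordinates, exon lengths and transcripts came from GENCODE M21 (GRCm38), which matched 53620 of 53715 IDs; promoters came from RefSeq. Columns without a sample numbered 0.

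In R 4.3.3, edgeR 4.0.16 was used to filter genes (filterByExpr), scale libraries (TMM) and run the quasi-likelihood F-test, with robust dispersion moderation and the non-legacy fit. All 4 libraries entered, leaving 2 residual degrees of freedom. SE is the log2 fold change over the square root of F. Alternatives used DESeq2 1.42.0, limma 3.58.1, other scalings and filters, a replicate block, each library left out and a gene-length correction, the last chosen after seeing the data. Libraries of a genotype differed beyond counting noise (chi-square per degree of freedom 42.5 and 27.0), so none looked like 1 library deposited again; this does not show that they came from separate animals.

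The genes and lists were chosen with earlier results of these data known. The text names the 8 genes, called genes of each list or else the 2 with the smallest p, and the 3 profiles nearest to each called member. S1pr2, S1pr3, S1pr5, H2-Ab1, single markers, Sphk2, Sgpl1, Mef2d, Mef2a, Map2k5, Akt2, Pik3cd, Rictor, Pik3ip1, Sgk1, Il7r, Itgal, Itgb7, Cxcr6, Gm20033 and Gm20743 were named outside this rule after their values were seen. Some genes of the lists are counted in totals but not reported here.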

Additional observations from a re-analysis of the deposited data

How the results depend on the processing

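Depth was ample for these genes, each with at least 778 counts in every library; 2 libraries per genotype limit the precision. The genes called, 368 in all, were 727 at 5 CPM or more in 2 libraries (335 higher, 392 lower), 1341 with DESeq2 (665 and 676) and 41 to 172 with a library left out (13 to 40 higher, 26 to 132 lower); without a low-count filter 93 were higher. Replicate numbers did not pair the libraries (correlation of the replicate differences between genotypes -0.0125), and with the replicate number as a block 33 genes were called, 7 higher and 26 lower, 0 of the 8 thymic exit genes (S1pr1 adjusted p = 0.115), 1 residency gene and 1 gene over all pathway lists. Of the 8 genes, 2 were called, S1pr1 and Cd69, with DESeq2, at 5 CPM or more and with the length trend removed, and 0 with any library left out. Over all pathway lists 12 genes were called, 21 at 5 CPM or more, 29 with DESeq2 and 4 to 9 with a library left out; residency genes numbered 4 with limma voom and 3 to 6 with a library left out. Leaving out a library gave log2 fold changes of -0.32 to 0.48 for Klf3 and -0.072 to 0.24 for Gpr183, and removing the length trend gave -0.017 for Klf3. The other 6 genes kept their sign in all 12 settings; the cause of these changes was not tested, beyond fewer libraries or genes in the fit.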
